A study of Mus musculus with 12 samples.

Results

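Signals of 10 genes of the NRF2 antioxidant response were examined in mouse skin, out of 18193 genes measured on the same arrays. The genes were Nfe2l2, Keap1, Slc7a11, Gclc, Gclm, Gsr, Gsta4, Txnrd1, Srxn1 and Hmox1, taken by name. Of all probe sets annotated to 1 of these genes alone, 21 in number, the set with the highest average across the 12 arrays stood for its gene, and the other 11 sets of 8 genes were kept as second readings. Total RNA of whole skin came from 4 groups of 3 arrays each, labelled as biological replicates, with Ahr+/- and Ahr-/- mice each studied untreated and after IMQ. All mice carried at least 1 null allele of Ahr, the gene of the aryl hydrocarbon receptor (AhR), a ligand-activated transcription factor. The Ahr-/- stock was on a mixed B6;129 background and lacked the receptor in every tissue, and its Ahr+/- littermates served as controls. Treated mice had Aldara cream with imiquimod (IMQ), an immune-activating drug that gives psoriasis-like inflammation, put on shaved back skin daily, and their skin was taken on day 2. Untreated skin, day 0 in the labels, had received no cream, so imiquimod, its carrier cream and the handling cannot be told apart. Ages and sexes are not given in the sources used here.

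NRF2, the product of Nfe2l2, is a transcription factor that is kept low by KEAP1, an adaptor that hands it to a ubiquitin ligase. Oxidants and electrophiles modify KEAP1, and NRF2 then builds up, pairs with small Maf proteins and binds antioxidant response elements near genes for glutathione supply, the thioredoxin system and haem breakdown. In skin the pathway is known for protecting keratinocytes from oxidative and chemical stress, and part of its control lies in protein stability, which RNA signals do not show.

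All values are the deposited log2 signals, on which a difference of 1 is a doubling. A change passed the test, and the gene is then called, where limma, a linear model across the 18193 genes whose 4 groups share 1 estimate of spread, gave an adjusted p below 0.05 and the groups differed 1.5-fold or more. The p-values rest on the spread of arrays labelled as biological replicates, and 3 arrays per group limit their precision. Ahr signals lay between 10.11 and 11.30 in untreated Ahr+/- skin, between 11.29 and 11.44 in untreated Ahr-/- skin, between 9.79 and 10.27 in IMQ-treated Ahr+/- skin and between 9.07 and 9.87 in IMQ-treated Ahr-/- skin, and so did not separate the genotypes without treatment. Where its probes lie relative to the deleted part is not known here, so that this set cannot check the labels. Gapdh control sets at the 3' and 5' ends, whose gap grows with RNA breakdown, stood 0.14 to 0.53 log2 units apart in 10 arrays, but 1.17 apart in Ahr-/- IMQ replicate 1 and 1.52 in replicate 2. Markers of growing hair follicles averaged 12.47 in Ahr+/- untreated replicate 2 and 8.74 and 9.04 in the other untreated Ahr+/- arrays. In untreated Ahr-/- arrays they averaged 6.07 to 8.00, below all untreated Ahr+/- arrays, with a median log2 difference of -3.17 over 8 markers, none of them called. After IMQ they averaged 6.26 to 8.37 in Ahr+/- and 5.72 to 6.52 in Ahr-/- arrays. What part hair growth has in the comparisons was not tested. Neutrophil markers averaged 5.79 to 6.25 in untreated arrays, 9.07 to 10.63 in Ahr+/- IMQ arrays and 11.89 to 12.05 in Ahr-/- IMQ arrays. The 6 markers moved unequally in Ahr+/- skin. There S100a8 and S100a9 rose by 7.12 and 8.23, and Csf3r, Cxcr2 and Clec4d by 1.17, 1.48 and 2.75, while Mmp8 was not called. The paper counts S100a8 among antimicrobial peptides of psoriasis lesions, so the average is not a measure of neutrophils alone. In whole skin, fewer cells of a type and less RNA per cell cannot be told apart.

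After IMQ treatment 5 of the 10 genes rose in Ahr+/- skin and none fell, and 5 rose in Ahr-/- skin and none fell. Gsta4, Slc7a11, Srxn1, Gsr and Nfe2l2 were the genes that rose in both genotypes. Gsta4 and Slc7a11 rose by 12.8 to 27.8-fold, while Srxn1, Gsr and Nfe2l2 rose by 1.69 to 4.64-fold. Hmox1, Gclm, Keap1, Txnrd1 and Gclc did not pass the test in either genotype. Over all genes, 5.22% were called higher and 3.83% lower in Ahr+/- skin, and 10.6% higher and 12.1% lower in Ahr-/- skin. The median log2 difference of the 10 genes was 0.67 in Ahr+/- and 1.02 in Ahr-/- skin, against -0.01 and 0.07 over all genes. Both comparisons use separate arrays.

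**Figure D1:**
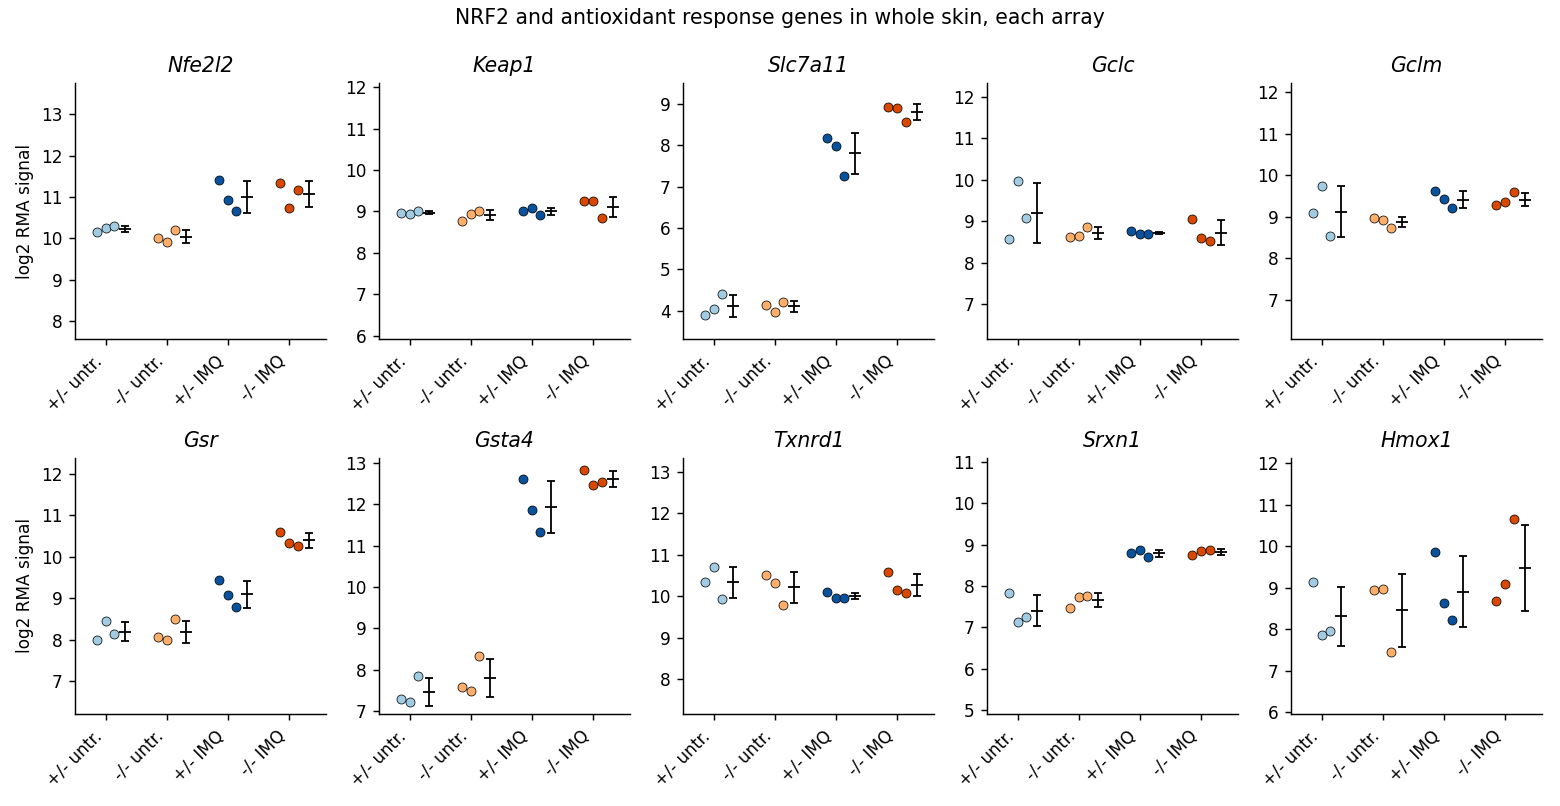
Log2 RMA signal (y axis) of the main probe set of each gene in the 4 groups (x axis), 1 panel per gene, with a point per array and the mean ± SD of 3 arrays beside each group. Every panel spans the same number of log2 units, and levels are not to be compared between panels. Slc7a11 and Gsta4 stand several log2 units higher after IMQ in both genotypes, and Gsr is highest in the IMQ-treated Ahr-/- arrays (10.27 to 10.61).

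Nfe2l2 encodes NRF2 itself. Its signal was 10.16, 10.24 and 10.31 in untreated Ahr+/- skin, 10.02, 9.91 and 10.20 in untreated Ahr-/- skin, 11.41, 10.92 and 10.66 in IMQ-treated Ahr+/- skin and 11.34, 10.72 and 11.17 in IMQ-treated Ahr-/- skin. Every treated array lay above every untreated one, and the treated arrays of the genotypes overlapped. In Ahr+/- skin Nfe2l2 rose by 0.76 log2 units, or 1.69-fold (95% interval 1.25 to 2.29, adjusted p = 0.0332), and in Ahr-/- skin by 1.03, or 2.04-fold (1.51 to 2.77, adjusted p = 0.00272). The second Nfe2l2 set also rose in both, by 0.96 (adjusted p = 0.0118 over all probe sets) and 0.99 (adjusted p = 0.00458). In Ahr+/- skin Nfe2l2 did not pass once untreated replicate 1 or 3, or IMQ replicate 1 or 2, was left out, with differences of 0.72, 0.79, 0.55 and 0.80. It also did not pass with array weights (0.64, adjusted p = 0.0521), with the Gapdh difference as a covariate (0.70, adjusted p = 0.0588) or with the compared groups alone (adjusted p = 0.0778), and its adjusted p spanned 0.0084 to 0.144 across alternative settings.

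Keap1, the gene of the NRF2 inhibitor, gave 8.96, 8.94 and 9.0 in untreated Ahr+/- skin, 8.77, 8.95 and 9.01 in untreated Ahr-/- skin, 9.01, 9.09 and 8.91 after IMQ in Ahr+/- skin and 9.25, 9.25 and 8.83 after IMQ in Ahr-/- skin. These arrays overlapped in all 4 groups. The IMQ difference of Keap1 was 0.03 in Ahr+/- skin (95% interval -0.28 to 0.34) and 0.20 in Ahr-/- skin (-0.11 to 0.51), with adjusted p of 0.926 and 0.33. Its second set read 0.56 and -0.07 (adjusted p = 0.129 and 0.856).

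Slc7a11 encodes the light chain of the cystine and glutamate exchanger that brings in cystine for glutathione. It read 3.90, 4.05 and 4.41 in untreated Ahr+/- skin, 4.15, 3.96 and 4.21 in untreated Ahr-/- skin, 8.18, 7.97 and 7.25 in IMQ-treated Ahr+/- skin and 8.92, 8.90 and 8.57 in IMQ-treated Ahr-/- skin. The treated arrays lay far above the untreated ones, and all 3 Ahr-/- treated arrays lay above all 3 Ahr+/- treated arrays. The rise was 12.8-fold in Ahr+/- skin (95% interval 9.16 to 18.0) and 25.8-fold in Ahr-/- skin (18.4 to 36.1), with adjusted p of 1.51e-06 and 1.45e-07. The other Slc7a11 set rose as well, by 4.42 and 4.18 on the log2 scale (adjusted p = 0.000173 and 8.49e-05). The deposited values hold no detection call, so that whether Slc7a11 RNA was above background in untreated skin is not known.

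Gclc and Gclm encode the catalytic and the modifier subunit of glutamate-cysteine ligase, the first enzyme of glutathione synthesis. Gclc gave 8.56, 9.97 and 9.07 in untreated Ahr+/- skin, 8.60, 8.63 and 8.87 in untreated Ahr-/- skin, 8.75, 8.69 and 8.69 in IMQ-treated Ahr+/- skin and 9.06, 8.60 and 8.51 in IMQ-treated Ahr-/- skin. Gclm gave 9.10, 9.75 and 8.53 in untreated Ahr+/- skin, 8.97, 8.93 and 8.74 in untreated Ahr-/- skin, 9.61, 9.42 and 9.20 after IMQ in Ahr+/- skin and 9.29, 9.36 and 9.60 after IMQ in Ahr-/- skin. Ahr+/- untreated replicate 2, the array with the high hair follicle signals, had the highest value of both genes, and whether hair growth has a part in it was not tested. Gclc differed by -0.49 after IMQ in Ahr+/- skin (95% interval -1.10 to 0.12, adjusted p = 0.314) and by 0.02 in Ahr-/- skin (-0.59 to 0.63, adjusted p = 0.961). Without that array the Gclc difference in Ahr+/- skin was -0.10 (adjusted p = 0.811, over the alternatives 0.0555 to 0.811). The second Gclc set was lower in both genotypes by an equal amount, -0.61, and did not pass (adjusted p = 0.113 and 0.0729). For Gclm the differences were 0.29 in Ahr+/- skin (-0.24 to 0.82, adjusted p = 0.528) and 0.54 in Ahr-/- skin (0.00 to 1.07, adjusted p = 0.127), and the IMQ-treated Ahr-/- arrays did not overlap with the untreated ones. Without Ahr+/- untreated replicate 2 the Gclm difference in Ahr+/- skin was 0.60 (adjusted p = 0.0571, over the alternatives 0.0571 to 0.99).

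Gsr encodes glutathione reductase, which turns oxidized glutathione back to its reduced form. Its signal was 7.99, 8.45 and 8.14 in untreated Ahr+/- skin, 8.07, 8.00 and 8.50 in untreated Ahr-/- skin, 9.43, 9.07 and 8.78 in IMQ-treated Ahr+/- skin and 10.61, 10.33 and 10.27 in IMQ-treated Ahr-/- skin. The groups stood in 3 steps that did not overlap, with both untreated groups lowest and the IMQ-treated Ahr-/- arrays highest. In Ahr+/- skin Gsr rose by 0.90 log2 units, or 1.87-fold (95% interval 1.38 to 2.53, adjusted p = 0.0138), and in Ahr-/- skin by 2.21, or 4.64-fold (3.43 to 6.27, adjusted p = 1.25e-05). The second Gsr set rose by 1.38 and 2.24 (adjusted p = 0.0096 and 0.000211 over all probe sets). Without Ahr+/- IMQ replicate 1 the rise in Ahr+/- skin was 0.74 and did not pass (adjusted p = 0.0688, over the alternatives 0.0064 to 0.0688).

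Gsta4 encodes a glutathione transferase that conjugates reactive aldehydes made from oxidized lipids. It has 1 probe set, which gave 7.29, 7.23 and 7.85 in untreated Ahr+/- skin, 7.59, 7.48 and 8.34 in untreated Ahr-/- skin, 12.60, 11.85 and 11.33 in IMQ-treated Ahr+/- skin and 12.82, 12.45 and 12.53 in IMQ-treated Ahr-/- skin. All treated arrays lay above all untreated arrays, while Ahr+/- IMQ replicate 1 reached into the range of the treated Ahr-/- arrays. Gsta4 rose 22.1-fold in Ahr+/- skin (95% interval 13.9 to 35.2, adjusted p = 3.69e-06) and 27.8-fold in Ahr-/- skin (17.5 to 44.2, adjusted p = 1.06e-06), and the interval in Ahr-/- skin overlaps with that of Slc7a11. Gsta4 and Slc7a11 were called in both IMQ comparisons under every alternative run, the rank product included.

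Txnrd1 encodes cytosolic thioredoxin reductase. Its signal was 10.36, 10.70 and 9.94 in untreated Ahr+/- skin, 10.52, 10.33 and 9.80 in untreated Ahr-/- skin, 10.09, 9.96 and 9.96 in IMQ-treated Ahr+/- skin and 10.59, 10.15 and 10.09 in IMQ-treated Ahr-/- skin, with overlap between all groups. The differences of -0.33 in Ahr+/- skin (95% interval -0.82 to 0.16) and 0.06 in Ahr-/- skin (-0.43 to 0.55) did not pass (adjusted p = 0.405 and 0.866), and neither did those of its 2 other sets.

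Srxn1 encodes sulfiredoxin, which repairs overoxidized peroxiredoxins. It read 7.83, 7.13 and 7.26 in untreated Ahr+/- skin, 7.46, 7.74 and 7.77 in untreated Ahr-/- skin, 8.79, 8.87 and 8.70 after IMQ in Ahr+/- skin and 8.74, 8.83 and 8.88 after IMQ in Ahr-/- skin. The treated arrays of both genotypes spanned no more than 8.70 to 8.88 and lay above all untreated arrays. Srxn1 rose 2.61-fold in Ahr+/- skin (95% interval 2.00 to 3.39, adjusted p = 0.000487) and 2.23-fold in Ahr-/- skin (1.71 to 2.91, adjusted p = 0.000518). Of the 3 other Srxn1 sets, 1 rose by 1.19 and 1.00 log2 units (adjusted p = 0.00346 and 0.00385), 1 by 1.38 and 1.14 (adjusted p = 0.000254 and 0.000307), and the last differed by 0.18 and 0.04 (adjusted p = 0.615 and 0.902). Which Srxn1 transcripts these sets read was not determined.

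Hmox1 encodes haem oxygenase, which splits haem. Its 1 set gave 9.13, 7.85 and 7.96 in untreated Ahr+/- skin, 8.95, 8.98 and 7.44 in untreated Ahr-/- skin, 9.86, 8.63 and 8.22 in IMQ-treated Ahr+/- skin and 8.68, 9.08 and 10.65 in IMQ-treated Ahr-/- skin. The arrays of a group lay far apart, with SDs of 0.71 to 1.04, and all groups overlapped. These SDs were the widest of the 10 genes in all groups but untreated Ahr+/- skin, where that of Gclc was 0.72. Differences of 0.59 in Ahr+/- skin (95% interval -0.68 to 1.86, adjusted p = 0.6) and 1.01 in Ahr-/- skin (-0.26 to 2.28, adjusted p = 0.226) did not pass, and these intervals hold both no change and a rise as large as that of Nfe2l2.

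**Figure D2:**
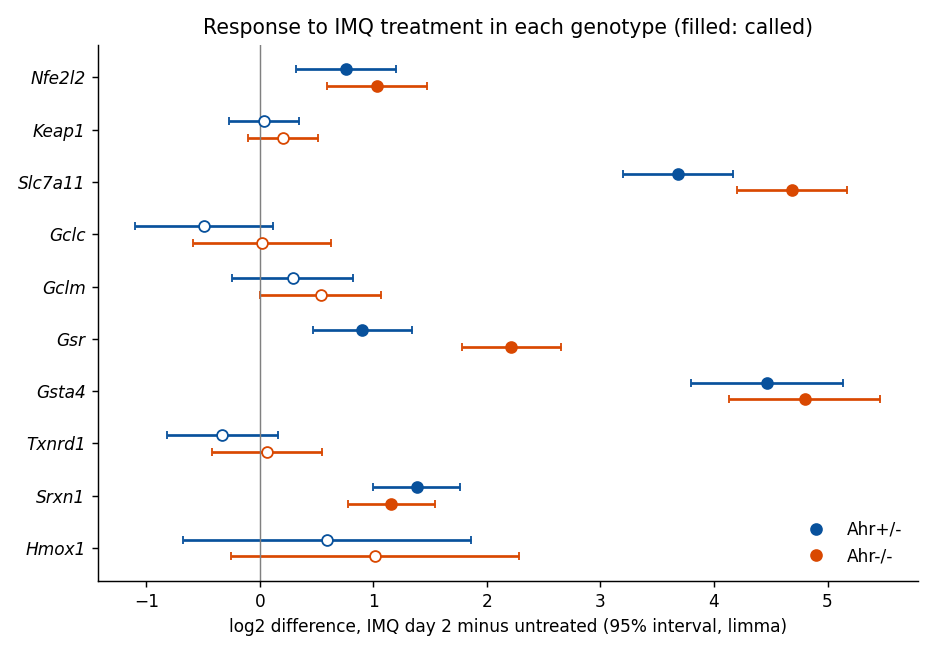
Change after IMQ, as treated minus untreated log2 signal (x axis), of the 10 genes (y axis) in Ahr+/- (blue) and Ahr-/- (orange) skin, 3 arrays per group, with 95% intervals from limma. Filled points passed the test, as they did for Nfe2l2, Slc7a11, Gsr, Gsta4 and Srxn1 in both genotypes, and the interval of Hmox1 is the widest.

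Promoters were searched for motifs in the 250 bases before the transcription start, read from RefSeq on build GRCm38.p6, for the 6 genes the promoter table holds (Nfe2l2, Keap1, Slc7a11, Gclm, Txnrd1 and Srxn1, 8 windows in all). Hmox1, Gclc, Gsta4 and Gsr are not in it. Motifs were searched on both strands. Srxn1 and Slc7a11 are shown because both rose after IMQ and their windows hold different motifs. Capitals mark matches, and both sequences run 5' to 3' on the gene's own strand, at chr2:152105274-152105523 (plus strand) for Srxn1 and chr3:50443614-50443863 (minus strand) for Slc7a11.
Srxn1: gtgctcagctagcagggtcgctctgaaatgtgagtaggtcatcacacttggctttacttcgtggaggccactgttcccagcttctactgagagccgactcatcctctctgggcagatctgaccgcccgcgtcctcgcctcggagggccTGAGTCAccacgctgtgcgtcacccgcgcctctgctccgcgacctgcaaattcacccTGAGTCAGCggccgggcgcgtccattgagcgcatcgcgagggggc
Slc7a11: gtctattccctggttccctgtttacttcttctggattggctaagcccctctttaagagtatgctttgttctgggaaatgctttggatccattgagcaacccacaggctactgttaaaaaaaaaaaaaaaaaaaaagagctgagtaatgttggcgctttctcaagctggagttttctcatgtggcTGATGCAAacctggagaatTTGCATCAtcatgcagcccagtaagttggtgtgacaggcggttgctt
The Srxn1 window holds TGAGTCAGC, the composite of NRF2 with a small Maf protein, 45 bases before the start, found in 0.347% of 32851 promoter windows of this length. That match contains the AP-1 motif TGANTCA, which occurs again 102 bases before the start and lies in 6.75% of all windows. The Slc7a11 window holds TGATGNAA, the composite of ATF4 with C/EBP, 66 bases before the start on the gene's strand and 47 bases before it on the opposite strand. This motif lies in 3.45% of all windows, and in 0.0396% at least 2 times. The antioxidant response element core TGACNNNGC lies in 10.2% of all windows and was found in those of Nfe2l2 (240 bases before the start), Gclm (134) and 1 of the 3 Txnrd1 windows (92). None of the 8 windows holds the AhR motif TNGCGTG, which 4.10% of all windows hold, and elements farther away were not searched.

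Between the genotypes on day 2 of IMQ, 2 of the 10 genes were called, both with the higher level in Ahr-/- skin, while 2.12% of all genes were called higher and 1.86% lower. Those 2 genes were Gsr, with a mean of 10.40 ± 0.18 against 9.09 ± 0.33 (SD of 3 arrays), and Slc7a11, with 8.80 ± 0.20 against 7.80 ± 0.49. This comparison uses the same treated arrays as the IMQ comparisons. Gsr was 2.47-fold higher (95% interval 1.83 to 3.34, adjusted p = 0.00385) and Slc7a11 1.99-fold higher (1.42 to 2.79, adjusted p = 0.0291). Gsta4, with 12.60 ± 0.19 against 11.93 ± 0.64, was 1.59-fold higher (1.00 to 2.53) and did not pass (adjusted p = 0.237). For the other 7 genes the log2 differences were 0.00 to 0.56, with adjusted p of 0.508 to 0.995, the largest being that of Hmox1 with an interval of -0.71 to 1.83. Other sets of these genes ran the other way without passing, by -0.60 for Keap1 (adjusted p = 0.147), -0.42 for Gclc (adjusted p = 0.326), -0.36 for Gclm (adjusted p = 0.45) and -0.33 for 1 set of Txnrd1 (adjusted p = 0.377).

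Of these differences that of Gsr had the same sign in its second set, where the IMQ-treated arrays read 9.49, 8.93 and 8.52 in Ahr+/- skin and 10.05, 9.26 and 10.05 in Ahr-/- skin. The groups overlap there through Ahr-/- IMQ replicate 2, and the difference of 0.81 did not pass (adjusted p = 0.132). The second set of Slc7a11 went the other way, with 9.10, 8.12 and 7.87 in Ahr+/- skin and 7.45, 6.66 and 8.03 in Ahr-/- skin. There Slc7a11 was lower in Ahr-/- skin by a log2 difference of -0.98 (95% interval -2.00 to 0.03, adjusted p = 0.258), and with the mean of both sets the genotype difference of Slc7a11 was 0.01. The direction of the genotype difference of Slc7a11 thus depends on the probe set, whereas its rise after IMQ did not.

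**Figure D3:**
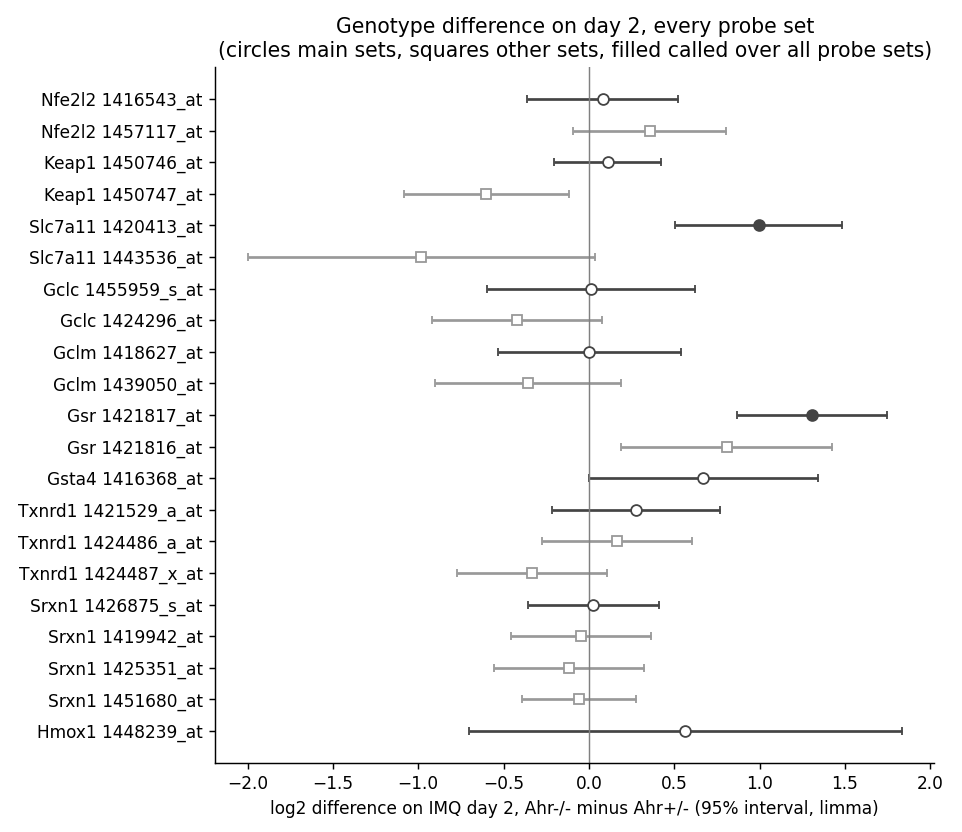
Log2 difference between Ahr-/- and Ahr+/- skin on day 2 of IMQ (x axis) for all 21 probe sets of the 10 genes (y axis), 3 arrays per group, with 95% intervals from limma over all probe sets. Circles are main sets, squares are other sets and filled symbols passed the test; both Gsr sets lie above 0 (1.31 and 0.81), and the 2 Slc7a11 sets lie on opposite sides (1.00 and -0.98).

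**Figure D4:**
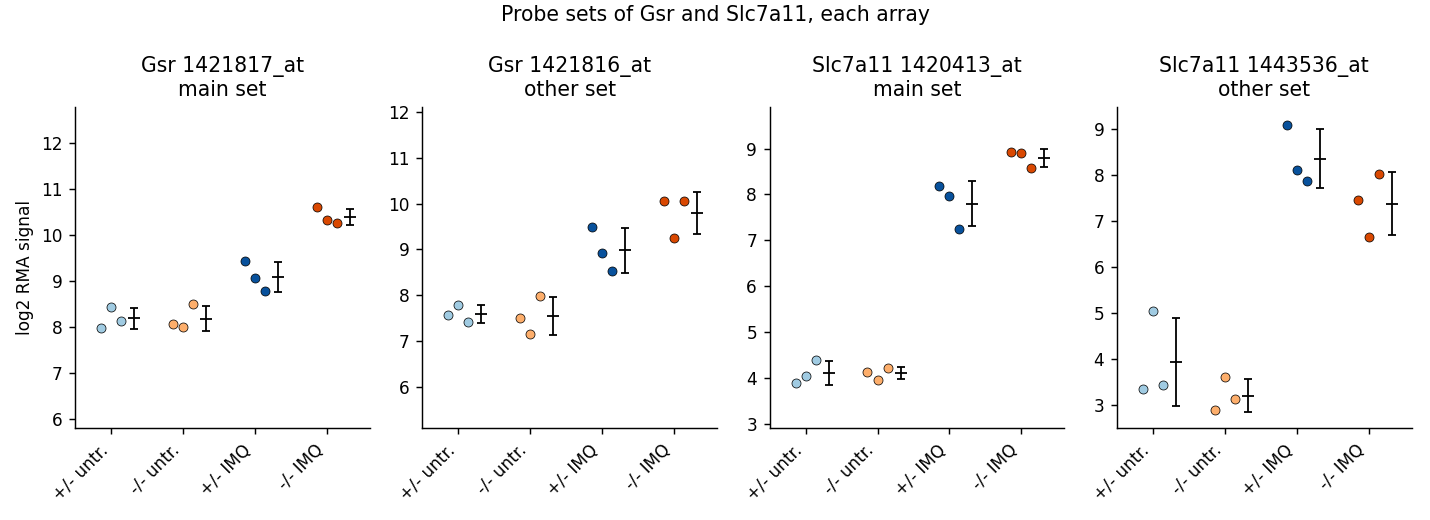
Log2 RMA signal (y axis) of both probe sets of Gsr and of Slc7a11 in the 4 groups (x axis), with a point per array and the mean ± SD of 3 arrays beside each group. All 4 sets are higher after IMQ in both genotypes, and the 2 Slc7a11 sets order the treated genotypes in opposite ways.

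Both genotype calls rest on few arrays. The Gapdh 3' and 5' sets separated Ahr-/- IMQ replicates 1 and 2 from the other arrays. With that Gapdh difference as a covariate, Gsr differed by 1.27 (adjusted p = 0.171) and Slc7a11 by 0.79 (adjusted p = 0.569), and neither passed. With Ahr-/- IMQ replicate 3 as the lone array of its group, assumed to vary like the other groups, Gsr differed by 1.17 (adjusted p = 0.201) and Slc7a11 by 0.77 (adjusted p = 0.535). Across alternative settings the adjusted p spanned 0.0002 to 0.201 for Gsr and 0.0062 to 0.991 for Slc7a11. By the rank product, the method used in the study, neither passed its threshold of 0.01, with a percentage of false predictions of 0.0197 for Gsr and 0.0828 for Slc7a11. Gsr passed when any 1 array was left out, with differences of 1.15 to 1.48, and Slc7a11 failed when treated Ahr+/- replicate 2 (1.08) or 3 (0.72), or treated Ahr-/- replicate 1 (0.93) or 2 (0.94), was dropped. Neutrophil markers moved with Gsr and the main Slc7a11 set on day 2, 4 of 6 being higher in Ahr-/- skin by 1.90 to 4.67, and 2 of the 5 keratinocyte markers measured, Krt1 and Krt10 of differentiating epidermis, were lower by log2 differences of -2.79 and -2.71. In limma with the Gapdh covariate or with replicate 3 alone, 0 of these 6 marker differences passed, and all kept their sign. What part the make-up of the skin or the state of the RNA has in these differences was not tested.

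In untreated skin none of the 10 genes passed between the genotypes in limma, and 1 of all 18193 genes (0.0055%) did. By their main sets, 0 of the 10 had an unadjusted p under 0.05, as did 1180 of all genes, and the rank product called 0. The log2 differences of main sets ran from -0.50 for Gclc (95% interval -1.10 to 0.11) to 0.34 for Gsta4 (-0.33 to 1.01), with adjusted p of 0.783 to 0.998. Gsr differed by -0.0036 with an interval of -0.44 to 0.43 and Slc7a11 by -0.01 with an interval of -0.50 to 0.48. In limma over all probe sets none of the 21 sets passed. There the second Slc7a11 set differed by -0.74 (adjusted p = 0.819) and the second Nfe2l2 set by 0.33 (adjusted p = 0.817). Another Txnrd1 set differed by -0.63 (unadjusted p = 0.00904, adjusted p = 0.725).

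Whether the 2 genotypes responded differently to IMQ was tested as an interaction, which uses all 12 arrays. It passed for 1 of the 10 genes, Gsr, beside 1.32% of all genes in either direction. The response of Gsr was larger in Ahr-/- skin by 1.31 on the log2 scale (standard error 0.28, 95% interval 0.70 to 1.93, adjusted p = 0.0454). This lies close to the threshold, and 15 of 24 alternatives did not call it, among them 9 of the 12 that leave out 1 array (1.15 to 1.47, highest adjusted p = 0.137), the fit over all probe sets (adjusted p = 0.0541) and the mean of both Gsr sets (1.08, adjusted p = 0.121). Across all of them the adjusted p spanned 0.0042 to 0.359. For Slc7a11 the difference of responses was 1.01 (0.32 to 1.69, adjusted p = 0.131), and for Gsta4 it was 0.33 (-0.62 to 1.27, adjusted p = 0.739). The main sets of the other 7 genes lay between -0.22 and 0.51, with intervals that all include 0. Over all probe sets, another Txnrd1 set gave 0.79 (0.17 to 1.42, adjusted p = 0.191) and the second Keap1 set -0.63 (-1.32 to 0.05, adjusted p = 0.331).

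Other genes were read from 8 lists of 80 genes, 73 of them measured. The lists cover the pathway and processes beside it, such as iron handling, superoxide production and the response to amino acid shortage. Of the 73 genes, 14 were called higher and 4 lower after IMQ in Ahr+/- skin (19.2% and 5.48%, against 5.22% and 3.83% of all genes). In Ahr-/- skin 25 were called higher and 10 lower (34.2% and 13.7%, against 10.6% and 12.1%). Between the genotypes, 2 were higher and 1 lower in Ahr-/- skin under IMQ (2.74% and 1.37%), shares near those of all genes (2.12% and 1.86%), and none passed without treatment. Their median log2 difference after IMQ was 0.25 in Ahr+/- skin and 0.45 in Ahr-/- skin. The list of 9 amino acid response genes gave 3 of the 14 higher calls in Ahr+/- skin and 9 of the 25 in Ahr-/- skin. The lists were chosen with earlier results of these data known, so shares above those of all genes can follow from the choice.

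Part of these calls rests on the arrays with the wide Gapdh gap or on 1 array. Of the 35 calls in Ahr-/- skin, 17 held with the Gapdh covariate and 12 with Ahr-/- IMQ replicate 3 alone. Among the genes named here, both settings lost Gpx2, Gsta3, Slc3a2, Ggct, Txnrd3, Nqo1, Slc40a1, Tfrc, Duox1, Ncf4, Chac1, Trib3 and Ddit3 in Ahr-/- skin. There replicate 3 alone also lost Gsto1, Osgin1, Txn1 and Slc7a5. Of the 3 calls on day 2 (Maff, Cat and Ddit3) and the 2 in the interaction (Me1 and Cat), 0 held in limma under either setting. When any 1 of the 12 arrays was left out, 10 of the 18 calls in Ahr+/- skin, 23 of the 35 in Ahr-/- skin and 0 of the 5 others held each time. What part RNA quality has in these calls was not tested.

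Among 9 partners and regulators of NRF2, Sqstm1, whose product binds KEAP1, rose in Ahr+/- skin by 0.62 (adjusted p = 0.0335), a call lost without Ahr+/- untreated replicate 2 (0.49) and 5 other single arrays. In Ahr-/- skin the Sqstm1 difference of 0.48 had an adjusted p of 0.0472 and arrays that did not overlap, but fell under the fold minimum, and the 2 responses of Sqstm1 did not pass a test of their difference (adjusted p = 0.798). In Ahr-/- skin Osgin1, a target with a growth-inhibiting product, rose by 1.17 (adjusted p = 0.00157) and Maff, a small Maf partner, by 1.10 (adjusted p = 0.000472), against 0.70 and 0.73 with Ahr-/- IMQ replicate 3 alone. Maff was the only one of the 9 called between the genotypes on day 2, at 0.69 (adjusted p = 0.0366), and no interaction passed. Cul3, the ligase scaffold that works with KEAP1, differed by 0.03 and -0.35 after IMQ and did not pass.

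The 18 other glutathione genes did not move one way. In Ahr+/- skin 4 rose and 2 fell, led by Glrx, the gene of glutaredoxin, at 2.84 (adjusted p = 5.45e-06), Ggct at 1.80 and Gsto1 at 1.80. In Ahr-/- skin 5 rose and 5 fell. Glrx rose there by 2.69 (adjusted p = 3.66e-06) and Gpx2, a glutathione peroxidase gene, by 1.68 (adjusted p = 0.00271), while the transferase gene Gsta3 fell by 2.07 (adjusted p = 0.0154). Thus Gsta4 rose by 22.1 and 27.8-fold where Gstm1, another transferase gene, fell in Ahr+/- skin by 0.85 (adjusted p = 0.0123) and in Ahr-/- skin by 1.56 (adjusted p = 9.26e-05). Slc3a2, the heavy chain that pairs with the Slc7a11 product, differed by 0.25 in Ahr+/- skin (adjusted p = 0.614) and rose by 0.93 in Ahr-/- skin (adjusted p = 0.0164), where IMQ replicate 3 alone gave 0.40. None of the 18 passed in limma between the genotypes on day 2, without treatment or in the interaction. Gsta3, though not called there, averaged 5.94 ± 1.00 in untreated Ahr+/- and 8.20 ± 0.55 in untreated Ahr-/- skin (SD of 3 arrays), without overlap. After IMQ it averaged 6.82 and 6.13, so its fall in Ahr-/- skin started from a higher level.

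Beside Txnrd1, 8 further thioredoxin and peroxiredoxin genes were measured of 11 listed. In Ahr+/- skin Txnrd3, a thioredoxin reductase gene, rose by 0.85 (adjusted p = 0.0223), and in Ahr-/- skin it rose by 0.81 (adjusted p = 0.0122) and Txn1, the thioredoxin gene, by 0.71 (adjusted p = 0.00372). Of 5 measured enzymes that make NADPH, the cofactor of both Gsr and Txnrd1, none was called in Ahr+/- skin, where Pgd differed by 0.52 and Idh1 by -0.44. In Ahr-/- skin Me1, malic enzyme, fell by 1.77 (adjusted p = 0.000237), and its interaction was -1.72 (adjusted p = 0.033). Untreated, Me1 averaged 11.47 in Ahr+/- and 12.30 in Ahr-/- skin, without overlap though not called, and after IMQ 11.41 and 10.53. The fall of Me1 in Ahr-/- skin thus also started from a higher level. Among 8 measured genes of quinone, epoxide and conjugate handling, 3 rose and 1 fell in Ahr+/- and 3 rose and 2 fell in Ahr-/- skin. Nqo1, the quinone reductase gene often used as an NRF2 readout, rose by 0.93 (adjusted p = 0.0137) and 0.62 (adjusted p = 0.0401), Cbr3 by 1.26 and 1.17, and the exporter gene Abcc3 by 2.47 and 2.34. With 1 array left out, the Nqo1 call was lost in 3 of 12 fits in Ahr+/- skin and in 6 of 12 in Ahr-/- skin. Ephx1, an epoxide hydrolase gene, fell by 0.88 (adjusted p = 0.0499) and 1.98 (adjusted p = 0.000199). Its call in Ahr+/- skin was lost in 10 of the 12 fits that left out 1 array, and also with the Gapdh covariate.

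Of 7 measured genes of haem breakdown and iron, the setting in which Hmox1 acts, Tfrc, the transferrin receptor gene, rose by 1.40 and 0.96 and the iron exporter gene Slc40a1 fell by 1.39 and 1.17 in Ahr+/- and Ahr-/- skin. Without Ahr+/- untreated replicate 2, the array with high hair follicle signals, the difference of Slc40a1 in Ahr+/- skin was -0.74. In each genotype the Slc40a1 call was lost in 9 of the 12 fits that left out 1 array, and also with the Gapdh covariate. Among 9 measured enzymes that make or remove superoxide and hydrogen peroxide, Duox1 rose in both genotypes, by 1.55 and 1.16. Cat, the catalase gene, fell in Ahr-/- skin by 1.44 (adjusted p = 7.28e-05) and differed by 0.09 in Ahr+/- skin. This difference of responses passed (-1.53, adjusted p = 0.0131). Untreated, Cat averaged 11.52 in Ahr+/- and 12.26 in Ahr-/- skin, without overlap though not called, and after IMQ 11.61 and 10.82. Its fall in Ahr-/- skin thus started from a higher level. Sod2 rose by 1.24 and Ncf4, a phagocyte oxidase gene, by 1.40 in Ahr-/- skin.

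ATF4 is a transcription factor of amino acid shortage that also acts on Slc7a11. Of 9 genes of its response, 3 rose in Ahr+/- skin, Asns by 1.80, Psat1 by 1.63 and Trib3 by 1.12, while 8 lay above 0. Ahr+/- untreated replicate 2, with the high hair follicle signals, read 9.45 for Slc7a5 (7.58 and 7.89 in replicates 1 and 3). It read 9.03 for Chac1 (7.46 and 6.92), but 6.02 for Trib3 (6.78 and 6.60), and what part hair growth has in this was not tested. All 9 rose in Ahr-/- skin, led by the amino acid transporter gene Slc7a5 at 2.43 (adjusted p = 0.000945), Asns at 1.77 and Chac1 at 1.40. With the Gapdh difference as a covariate 5 of the 9 were called in Ahr-/- skin, and with Ahr-/- IMQ replicate 3 alone 3 were. Ddit3 was higher in Ahr-/- skin on day 2 by 0.84 (adjusted p = 0.0363). No gene of this list passed the interaction test in limma, where 3 of 9 had an unadjusted p under 0.05, as did 3185 of all 18193 genes.

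**Figure D5:**
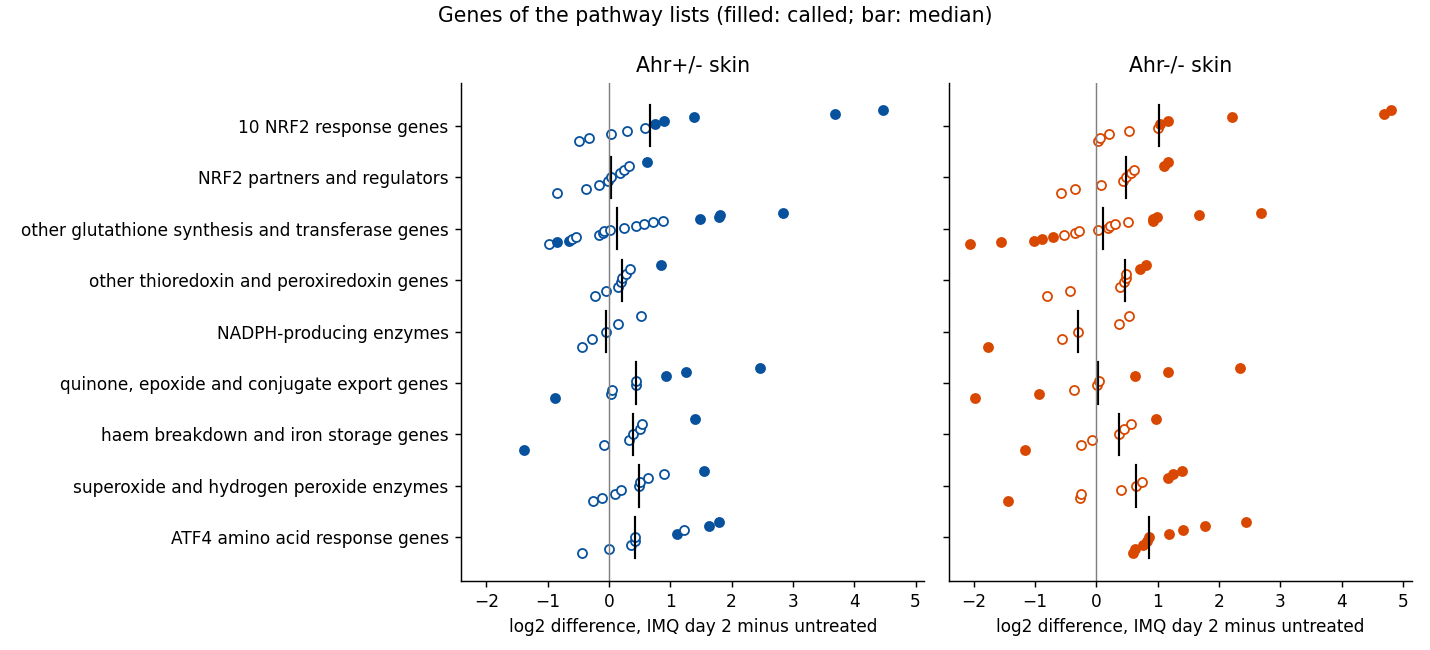
Change after IMQ, as treated minus untreated log2 signal (x axis), of the measured genes of each list (y axis) in Ahr+/- skin (left) and Ahr-/- skin (right), 3 arrays per group. Each point is a gene, filled points passed the test and bars are list medians; the 2 points farthest to the right in both panels are Slc7a11 and Gsta4 (3.68 and 4.47 in Ahr+/-, 4.69 and 4.80 in Ahr-/- skin).

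The genes whose signals most resembled those of the 5 responding genes were found by the root mean square distance over 12 arrays, after each gene was centred on its own mean. Slc7a11 lay nearest to Sh2d5 (0.35) and Ptgs2 (0.41), and Gsta4 nearest to Slpi (0.47) and Ptgs2 (0.47). Gsr lay nearest to Tmem252 (0.24) and Ddah1 (0.25), Srxn1 to Degs1 (0.17) and Apod (0.18), and Nfe2l2 to Eif1a (0.15) and Nop14 (0.16). For comparison, the signal of Gsr itself varied over the 12 arrays with an SD of 0.97 and that of Slc7a11 with an SD of 2.23. On day 2 Ddah1 was higher in Ahr-/- than in Ahr+/- skin by 1.41 and Tmem252 by 0.92, beside 1.31 for Gsr. Sh2d5 was higher by 1.38 and Ptgs2 by 1.62, beside 1.00 for Slc7a11. Slpi was higher by 1.38, and it and Ptgs2 stood beside 0.67 for Gsta4. These genes were picked for likeness over the same 12 arrays, day 2 included, so like differences follow from the choice.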

How the data were processed

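RNA of whole skin was hybridised to 12 Affymetrix mouse genome arrays, 3 per group of genotype and treatment. The values are log2 signals that the authors made by RMA normalization with the R package affy and deposited as 1 table, the affy version being not given in the sources used here. Of 45101 probe sets, 64 controls, 932 sets of several genes and 9160 with no symbol were left out, which left 34945 sets of 18193 genes. The set with the highest average stood for each gene, a rule that never used group differences.

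Groups were compared with limma 3.58.1 in R 4.3.3 (lmFit and eBayes, 4 group means, 8 residual and 4.44 prior degrees of freedom), with Benjamini-Hochberg adjustment over 18193 genes in each of 5 comparisons. Second sets were adjusted over all single-gene sets. The study's methods used a rank product, which was run as an alternative with 100 permutations. Other alternatives changed the probe set, filter, scaling, model, covariate, threshold or arrays used.

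The rule for named genes took every member with all its sets, up to 3 called genes of largest difference per list and comparison (up to 2 where none was called), and the 2 genes nearest to each called member. Values of such genes in other comparisons, and Cul3, Slc3a2 and Gstm1, were chosen after their values were seen. Members and lists were chosen with earlier results of these data known. Array medians lay between 7.38 and 7.56. The steps were tested on simulated data. Python 3.11.15, numpy 2.4.6, pandas 2.3.3 and matplotlib 3.10.9 were used.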

Additional observations from a re-analysis of the deposited data

Results flagged for a closer look

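The response of Gsr to IMQ differed between the genotypes by 1.31 on the log2 scale, tested as the interaction of genotype and treatment in limma (adjusted p = 0.0454, 0.0042 to 0.359 over the alternatives). In the main set all 3 IMQ-treated Ahr-/- arrays lay above all 3 IMQ-treated Ahr+/- arrays, and the untreated arrays of both genotypes overlapped. In the second Gsr set the treated arrays overlapped, and the interaction was 0.85 in limma over all probe sets (adjusted p = 0.305). Ahr-/- IMQ replicates 1 and 2 are the arrays with the wide Gapdh gap.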

How the results depend on the processing

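For IMQ in Ahr+/- skin, 5 members were called, 3 with the compared groups alone or at an adjusted p under 0.01, 4 with array weights or the Gapdh covariate, 2 by the rank product and 3 to 5 with single arrays left out. In Ahr-/- skin 5 were called, and 3 by the rank product, which lost Srxn1 and Nfe2l2 in both genotypes and Gsr in Ahr+/- skin. On day 2, where 2 were called between the genotypes, 1 was called with the mean of all probe sets or at an adjusted p under 0.01, 0 with the Gapdh covariate, Ahr-/- IMQ replicate 3 alone or the rank product, and 1 to 2 with single arrays left out. For the difference of responses, 1 was called, against 0 with all probe sets, the mean of sets, the Gapdh covariate, replicate 3 alone, the replicate block or an adjusted p under 0.01, 2 with array weights, and 0 to 1 with single arrays left out. Array weights also called Gsta4 on day 2 (0.91, adjusted p = 0.0381, 0.0381 to 0.914 over the alternatives). Signs turned for Keap1 in Ahr-/- skin with the Gapdh covariate (-0.024), replicate 3 alone (-0.078) and the second set (-0.069), and for Gclc there with the mean of sets (-0.29), the covariate (-0.072), replicate 3 alone (-0.19) and the second set (-0.61). They also turned for Gclm there with the second set (-0.037), for Txnrd1 with its x_at set in Ahr+/- (0.0022) and Ahr-/- skin (-0.0097) and with replicate 3 alone in Ahr-/- skin (-0.13), and for the second Slc7a11 set on day 2 (-0.98) and in the difference of responses (-0.24). With single arrays left out Keap1 spanned -0.0094 to 0.079 and Gclm -0.0083 to 0.60 in Ahr+/- skin, and Gclc -0.15 to 0.13 and Txnrd1 -0.15 to 0.22 in Ahr-/- skin. Of 1280 member values of main sets or set means under alternatives 58 changed sign, and 0 of those were called in either setting. Over all genes, day 2 calls numbered 724, and 27 with the Gapdh covariate, 43 with replicate 3 alone, 205 by the rank product, 2019 with array weights and 1091 with the groups alone. Same-numbered arrays deviated together with correlations of -0.18 to 0.32, so replicate numbers were not taken as pairs, and with the replicate block 5, 5, 2, 0 and 0 members were called in the 5 comparisons. The cause was not tested for these shifts. Signals over background were not given, which limits statements on dim sets such as those of Slc7a11 in untreated skin.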

Other observations

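Of the 5 keratinocyte markers measured, 2 rose and none fell in Ahr+/- skin after IMQ, and 1 rose and 2 fell in Ahr-/- skin. Krt14 of basal keratinocytes rose by 1.49 and 1.58, while in Ahr-/- skin Krt10 fell by 3.47 (adjusted p = 0.000172) and Krt1 by 1.47 (adjusted p = 0.032), the latter being -0.87 with Ahr-/- IMQ replicate 3 alone (adjusted p = 0.488, 0.0014 to 0.488 over the alternatives). Of the 6 fibroblast markers 2 fell in Ahr+/- skin, where 3 lay above 0, and 3 fell and 1, Pdgfra, rose by 0.69 in Ahr-/- skin. Adgre1, a macrophage marker, rose in Ahr+/- skin by 2.24 (adjusted p = 0.000703) and differed between Ahr-/- and Ahr+/- skin on day 2 by -1.60 (adjusted p = 0.0119), a call lost without Ahr+/- IMQ replicate 3 or Ahr-/- IMQ replicate 2 (-1.77 to -1.43 over single arrays left out). Of the 5 adipocyte markers measured 1 fell in Ahr+/- and 2 in Ahr-/- skin, of the 6 muscle markers 2 fell in Ahr-/- skin, and of the 3 red cell markers none was called in limma in any comparison, though 2 had an unadjusted p under 0.05 in 1 comparison each. Over all 18193 genes, 1180 to 7032 had such a p in limma, depending on the comparison. In Ahr+/- skin Krt27, a keratin of growing hair, fell by 4.25 (adjusted p = 0.0313), and the difference was -3.03 without the untreated array with high hair signals (adjusted p = 0.0572, 0.0156 to 0.114 over the alternatives).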
